A study of Marchantia polymorpha with 9 samples.

Results

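The comparison described here sets the autosomal transcriptomes of Mpb-gata1-2 and Mpb-gata1-1, 2 mutant lines of the B-GATA transcription factor MpB-GATA1 in the liverwort Marchantia polymorpha, against each other, and follows the differing genes along chromosomes 1 to 8. Of the 20574 genes in the deposited tables, 20090 lie on these 8 chromosomes and were taken as members, and 14530 of them had enough reads to be tested. The other 5560 had too few reads. In all, 3 libraries came from Mpb-gata1-2, 3 from Mpb-gata1-1 and 3 from BoGa, the wild-type accession. BoGa is not part of the comparison between the mutants. Its libraries were in the same fit, however, and shared in its filter, scaling and estimate of spread, so they bear on every p-value below. Each library pooled 3 entire plants, thalli 3 weeks of age, grown untreated at 22 °C on Gamborg's B5 medium (1/2 strength) under 16 h of light and 8 h of dark. Each mutant is represented by 1 line, and the labels do not describe the lesion in either, so that what belongs to the allele and what belongs to the line cannot be told apart.

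Marchantia spends most of its life as a haploid thallus, a flat green body without roots or leaves, and a plant carries either a U chromosome (female) or a V chromosome (male) beside its 8 autosomes. B-GATA factors are zinc finger regulators known in flowering plants for promoting greening and responding to light, nitrogen and cytokinin. Liverworts hold large families of secreted and phenol-modifying enzymes, among them class III peroxidases, polyphenol oxidases and cupins, whose genes often stand in tandem arrays.

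The libraries held 24823337 to 44133919 reads assigned to genes, of which 98.2% to 98.3% were unique and 99.0% to 99.7% autosomal. The 2 mutants differed in reads from the V chromosome. Over 22 V genes with unique reads, the level relative to the mean of Mpb-gata1-2 was 1.03, 0.946 and 1.01 in the Mpb-gata1-2 libraries, against 0.0253, 0.0194 and 0.0172 in the Mpb-gata1-1 libraries, and 0.368, 0.533 and 0.682 in the BoGa libraries. Over these 22 genes the Mpb-gata1-1 libraries thus stood near 0 and the BoGa pools in between. As a share of all gene reads, those of all V genes were 0.806%, 0.440% and 0.577% in Mpb-gata1-2. They were 0.396%, 0.175% and 0.392% in Mpb-gata1-1 and 0.286%, 0.334% and 0.382% in BoGa, so by this measure Mpb-gata1-1 and BoGa overlapped. The difference in V reads runs exactly with the 2 mutants, so a difference in sex-linked expression and one between the alleles cannot be told apart in any autosomal value below. Neither can fewer cells of a type and less RNA per cell, since the samples are whole plants. MpGATA4 (Mp7g03490, chromosome 7, 4342060 to 4345887), taken to be MpB-GATA1 from knowledge of the study because the tables do not pair the names, had 279, 284 and 287 CPM (counts scaled to the size of the library) in Mpb-gata1-2, against 254, 246 and 255 in Mpb-gata1-1, and 147, 152 and 154 in BoGa. Transcript was present in all 9 libraries, and its level does not by itself check the labels. The mutants differed in it by a log2 of 0.17 ± 0.05 (SE; edgeR, adjusted p = 0.0182), a call lost without Mpb-gata1-1 replicate 2 (adjusted p = 0.0573) and without Mpb-gata1-2 replicate 2 (0.0502) or 3 (0.0696).

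Differences between the mutants were widespread but mostly small. In edgeR's quasi-likelihood test with Benjamini-Hochberg adjustment over all tested genes, 4481 autosomal genes (30.8%) passed at an adjusted p under 0.05, 2152 of them higher and 2329 lower in Mpb-gata1-2. Over all 14667 tested genes of the table the percentage called was 30.9, with 14.9 higher and 16 lower. The median absolute log2 difference was 0.18 over all tested autosomal genes and 0.52 among those that passed, and the median signed difference was 0.00. In 7141 autosomal genes (49.1%) the 3 libraries of one mutant did not overlap the 3 of the other, beside 49.1% over the whole table.

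Location was described with the genes that passed and also differed at least 2-fold. There were 1029 (7.08% of the tested autosomal genes, against 7.3% over the whole table), 506 higher and 523 lower in Mpb-gata1-2 (over the whole table, 3.67% and 3.63%). Of these, 353 (2.43%, against 2.65%) differed at least 4-fold, 180 higher and 173 lower. Fitted log2 differences ran from -13.64 to 11.52.

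These genes were spread over all 8 chromosomes in unequal shares. Chromosome 2 held the highest share, with 190 of 2009 tested genes (9.46%; exact 95% interval 8.21% to 10.8%). Chromosome 5 followed with 163 of 1779 (9.16%), then chromosome 8 with 8.88% of 1385, chromosome 3 with 169 of 1994 (8.48%) and chromosome 7 with 127 of 1499 (8.47%). The intervals of these 5 overlap, so their order is not resolved. Chromosome 6 had 91 of 1603 (5.68%; 4.59% to 6.92%). Chromosome 1, with the most tested genes, had 96 of 2460 (3.9%; 3.17% to 4.74%), and chromosome 4 had 70 of 1801 (3.89%; 3.04% to 4.89%). Intervals cover counting error only, and since neighbouring genes are not independent, no test was made on location.

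The contrast between chromosomes was weaker when size was set aside. The share passing at any fold was 29.1% on chromosome 1, close to the 30.8% of all autosomes, while chromosome 4 had 22.5% and chromosome 6 had 26.9%. The other 5 lay between 32.7% and 34.8%. Chromosome 1 therefore combined an ordinary share of passing genes with a low share at least 2-fold apart.

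**Figure D1:**
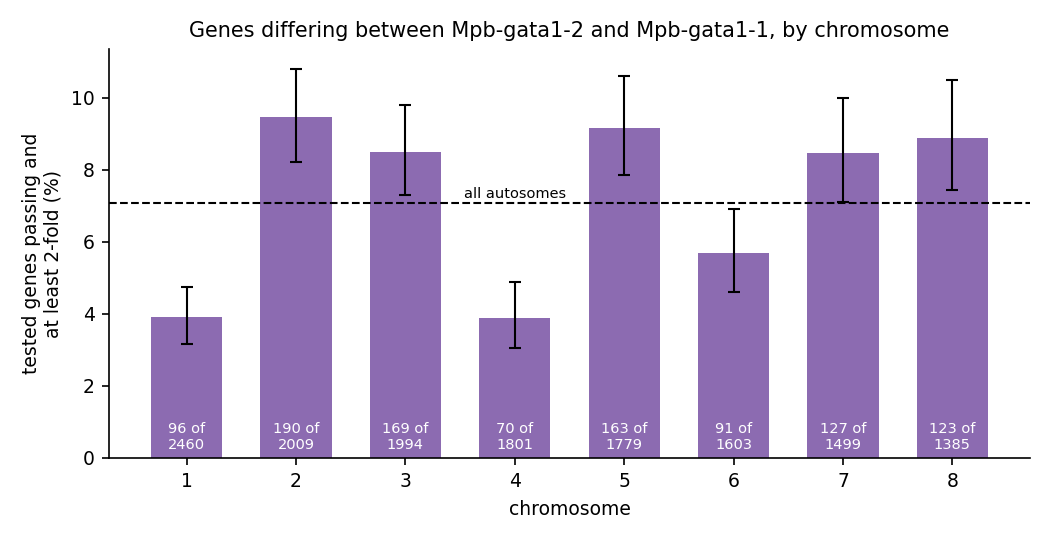
Bars give the percentage of tested genes on each chromosome that passed and differed at least 2-fold between Mpb-gata1-2 and Mpb-gata1-1, with exact 95% binomial intervals as error bars and the counts inside each bar; the dashed line marks the 7.08% of all autosomes. Chromosomes 1 and 4 stand at 3.9% and 3.89%, below the line with their whole intervals.

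Low-level genes carried most of these differences. When tested autosomal genes were ranked by mean level into 3 groups of equal size, 15.8% of the lowest group differed at least 2-fold, 4.23% of the middle and 1.18% of the highest. Within the lowest group, chromosomes 1, 4 and 6 had 11.2%, 9.23% and 10.7% and the other 5 had 18.2% to 20.4%. The split was less clear in the other groups. In the middle group chromosomes 1 and 4 were lowest, at 2.08% and 1.79%. There chromosome 6, at 5.28%, was above chromosomes 3 (3.19%), 7 (5.07%) and 8 (4.48%). In the highest group chromosomes 1, 4 and 6 had 0.632%, 0.519% and 0.574%, and the other 5 had 0.787% to 3.27%. Among the 11832 tested genes without a symbol, the share was 3.86% on chromosome 1, 3.45% on chromosome 4 and 4.99% on chromosome 6, against 7.77% to 9.24% on the other 5. Among the 2698 genes with a symbol the order was not the same. Chromosomes 1 and 4 were again lowest, at 4.11% and 5.9%, but chromosome 6, at 8.93% (25 of 280), was above chromosome 8, at 7.05% (16 of 227), and the other 4 had 9.63% to 13.8%. Genes with under 90% unique reads differed more often, at 14.3% against 6.47% for the rest.

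Chromosome 6 was divided. From its start to its midpoint, 21 of 813 tested genes (2.58%) differed at least 2-fold and 1 differed at least 4-fold. From the midpoint to the end, 70 of 790 (8.86%) differed at least 2-fold and 22 at least 4-fold. On chromosome 3 the order was opposite, with 119 of 1092 genes (10.9%) before the midpoint and 50 of 902 (5.54%) after it. No other chromosome showed a gap between its sides as wide as these: the next, on chromosome 7, was 75 of 723 (10.4%) against 52 of 776 (6.7%). The first and last 1 Mb of the chromosomes together had 67 of 959 genes (6.99%), against 962 of 13571 (7.09%) elsewhere, so the ends did not stand apart.

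In windows of 1 Mb, assigned by gene midpoint, the unevenness took the form of long quiet stretches and short dense ones. Of 211 windows, 208 held at least 20 tested genes and were ranked. Their median share was 5.92%, with quartiles of 3.32% and 9.76% and a maximum of 34.3%. There were 11 without a gene at least 2-fold apart, 74 without one at least 4-fold apart, and 18 reached 15%. The longest stretch of neighbouring windows all below the autosomal share covered the first 15 Mb of chromosome 6, with 28 of 1025 tested genes (2.73%), of which 1 was at least 4-fold apart. Next came 14 windows on chromosome 1, 11 to 25 Mb, with 27 of 1103 (2.45%), and 13 windows on chromosome 4, 11 to 24 Mb, with 17 of 821 (2.07%), 2 of them at least 4-fold. The longest stretches above it lay on chromosome 3, 9 to 16 Mb, with 83 of 583 (14.2%), and on chromosome 6, 17 to 24 Mb, with 52 of 448 (11.6%). Stretches were drawn after the shares were seen and their values are a description.

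**Figure D2:**
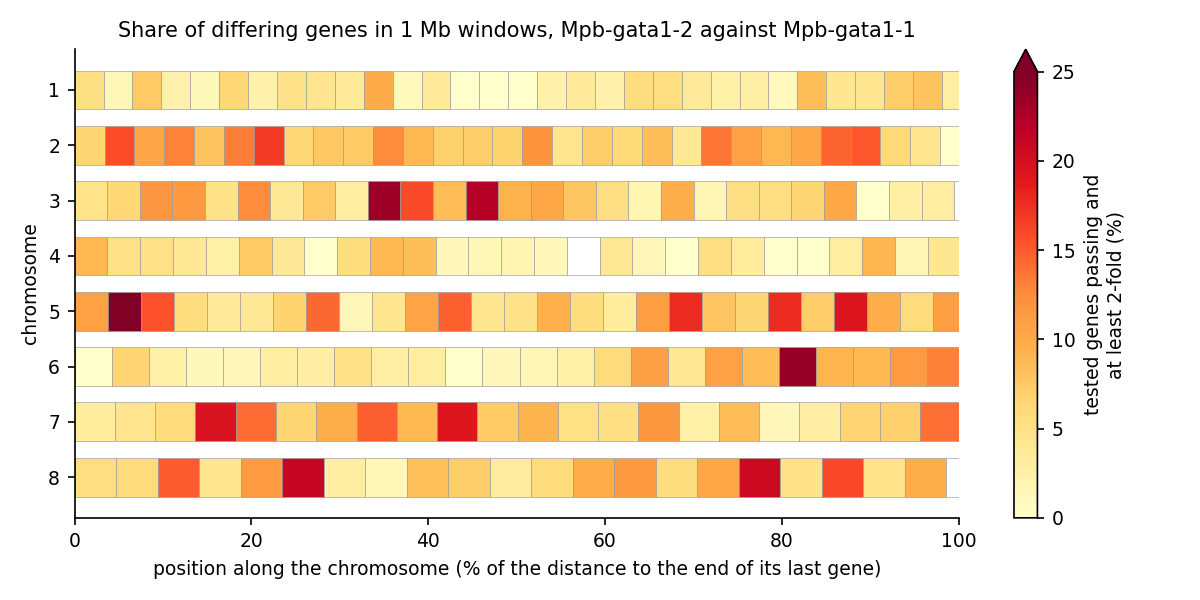
Each rectangle is a 1 Mb window, placed by its position in % of the distance to the end of the last gene, and its colour is the percentage of tested genes that passed and differed at least 2-fold between Mpb-gata1-2 and Mpb-gata1-1; white windows held fewer than 20 tested genes. Chromosome 6 is pale over its first 15 Mb, where 2.73% of genes differ, and chromosome 5 holds the darkest window, at 34.3%.

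The quiet stretches of chromosomes 6 and 4 were quiet between the mutants but not against BoGa, whereas that of chromosome 1 was low in every comparison. Set against BoGa in the same fit, 8.84% of all tested genes differed at least 2-fold in Mpb-gata1-2, against 8.38% in Mpb-gata1-1, and 3.52% and 3.38% differed at least 4-fold. In the first 15 Mb of chromosome 6, 43 genes (4.2%) were at least 4-fold from BoGa in Mpb-gata1-2, against 37 (3.61%) in Mpb-gata1-1, beside the 1 gene (0.0976%) between the mutants. That gene was Mp6g08300 (chosen after its value was seen), with 0.755 ± 0.27 CPM in Mpb-gata1-2, against 0.134 ± 0.104 in Mpb-gata1-1 (SD, n = 3 each). On chromosome 4 from 11 to 24 Mb, 29 genes (3.53%) were at least 4-fold from BoGa in Mpb-gata1-2, against 28 (3.41%) in Mpb-gata1-1, beside 2 (0.244%) between the mutants. On chromosome 1 from 11 to 25 Mb the counts were 11 (0.997%) in each mutant against BoGa and 8 (0.725%) between them. Both BoGa comparisons use the same 3 BoGa libraries and share each mutant with the main comparison, so they are given side by side and not tested against each other. With any 1 of the 9 libraries left out, the chromosome 6 stretch had 43 to 47 such genes for Mpb-gata1-2 against BoGa and 32 to 38 for Mpb-gata1-1, and across all alternatives 0 to 3 between the mutants.

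**Figure D3:**
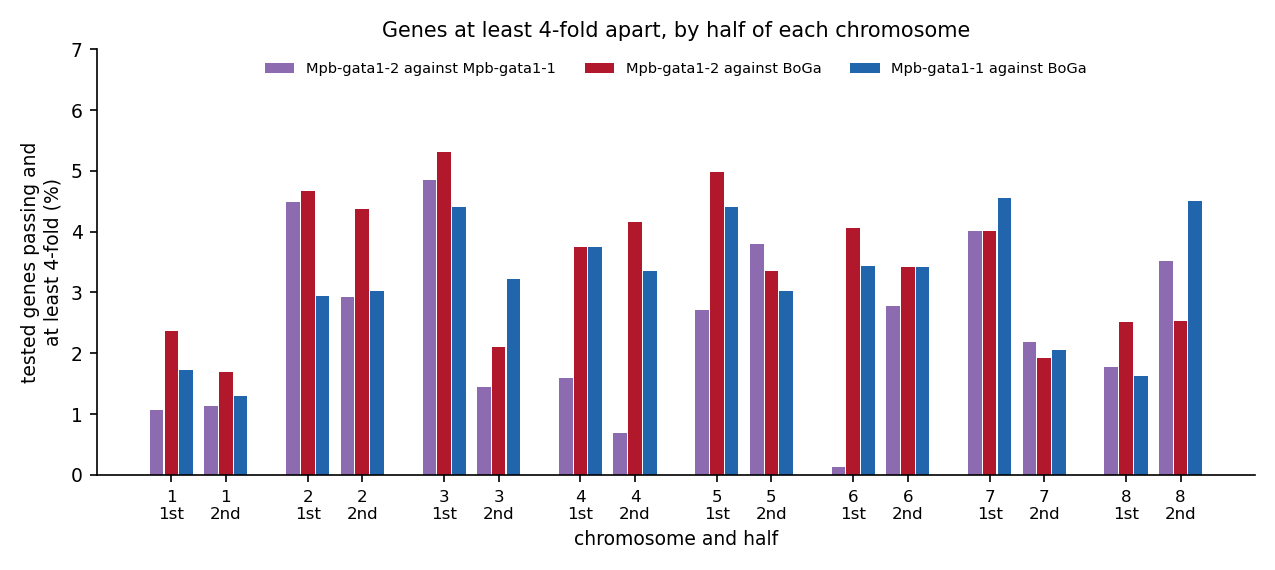
Bars give the percentage of tested genes passing and at least 4-fold apart on either side of the midpoint of each chromosome, for Mpb-gata1-2 against Mpb-gata1-1 and for each mutant against BoGa. Before the midpoint of chromosome 6, the mutants differ from each other in 0.123% of genes and from BoGa in 4.06% (Mpb-gata1-2) and 3.44% (Mpb-gata1-1).

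The densest window was on chromosome 5, 1 to 2 Mb, where 12 of 35 tested genes (34.3%; 19.1% to 52.2%) differed at least 2-fold, 9 higher and 3 lower. It holds an array of cupins, small barrel-shaped proteins that include the germin-like enzymes of the cell wall. MpCupin71 (1199676 to 1200826) had 3.56, 3.38 and 2.82 CPM in Mpb-gata1-2, against 22.6, 19.1 and 19.5 in Mpb-gata1-1, without overlap, and fell by 2.65 ± 0.18 on the log2 scale (adjusted p = 2.18e-06). Other cupins of the window went the other way: MpCupin64 averaged 5.22 ± 0.609 CPM in Mpb-gata1-2, against 2.27 ± 0.472 in Mpb-gata1-1 (SD, n = 3 each), a log2 difference of 1.22 ± 0.22 (adjusted p = 0.00196), and MpCupin63 rose by 1.46 ± 0.43 (adjusted p = 0.0281). The call for MpCupin63 was lost without Mpb-gata1-1 replicate 2 (adjusted p = 0.0733) or 3 (0.108) and without Mpb-gata1-2 replicate 1 (0.0601) or 2 (0.0789). MpCupin64 and MpCupin63 were at higher levels still in BoGa, at 8.45 and 4.94 CPM. The unnamed Mp5g00750, also in the window, had 13.6 ± 0.5 CPM in Mpb-gata1-2, against 3.9 ± 0.557 in Mpb-gata1-1.

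On chromosome 6, 19 to 20 Mb, 10 of 42 genes (23.8%) differed at least 2-fold, 3 higher and 7 lower, and the lower ones included polyphenol oxidases, copper enzymes that oxidise phenols to quinones. MpPPO47 (19703897 to 19706426) had 1.84, 1.57 and 2.06 CPM in Mpb-gata1-2, against 10.6, 11.6 and 11.2 in Mpb-gata1-1 and 4.27, 6.09 and 5.55 in BoGa. The 3 groups did not overlap, and BoGa lay between the mutants. The log2 difference was -2.61 ± 0.15 (adjusted p = 8.41e-07). MpPPO10, in the same window, differed by -1.44 ± 0.13 (adjusted p = 1.7e-05). The unnamed Mp6g17520, with the chromosome's largest rise among the genes that met the conditions for naming, lay in the same window with 12, 12.8 and 10.8 CPM in Mpb-gata1-2, against 0.32, 0.351 and 0.536 in Mpb-gata1-1, a log2 difference of 4.81 ± 0.20 (adjusted p = 7.9e-08). BoGa, at 16.6, 12.1 and 12.9 CPM, was near Mpb-gata1-2 for this gene.

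Chromosome 3 held the next densest windows, 9 to 10 Mb with 23 of 98 genes (23.5%, 14 higher and 9 lower) and 12 to 13 Mb with 17 of 77 (22.1%, 9 higher and 8 lower). Mp3g09160 (9036211 to 9037901), without a symbol, had 21.3, 23.8 and 21.2 CPM in Mpb-gata1-2, against 0.12, 0.0292 and 0.0447 in Mpb-gata1-1. The groups stood far apart, and BoGa, with 14, 11.1 and 6.92 CPM, stood between them. The log2 difference was 8.49 ± 0.41 (adjusted p = 3.32e-07). In the same window Mp3g09230 went the other way, with 9 reads summed over the Mpb-gata1-2 libraries, against 849 over the Mpb-gata1-1 libraries, although only 24.3% of its reads were unique. In the other window MpCupin54 rose by 2.58 ± 0.23 (adjusted p = 1.47e-05), MpPOD25, a class III peroxidase, fell by 1.48 ± 0.26 (adjusted p = 0.00168), and Mp3g12700 rose by 6.55 ± 0.27 (adjusted p = 7.53e-08), the last with 25.9% unique reads and an overlapping gene on its strand.

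The last of the 5 densest was on chromosome 8, 5 to 6 Mb, with 12 of 57 genes (21.1%, 7 higher and 5 lower). Its leading gene, Mp8g04950, had 65.8 ± 6.98 CPM in Mpb-gata1-2, against 9.51 ± 2.02 in Mpb-gata1-1, but it overlaps Mp8g04940 on the same strand and 24.8% of its reads were unique, so the reads of this pair may be shared. Mp8g05150, with 100% unique reads, fell by 1.44 ± 0.16 (adjusted p = 0.000101), with 12.4, 11.9 and 11.2 CPM in Mpb-gata1-2, against 32.9, 32.7 and 30.5 in Mpb-gata1-1.

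Differing genes tended to be neighbours. After a gene at least 2-fold apart, the next tested gene was also at least 2-fold apart in 23.8% of cases, and after any other gene in 5.8%. Of the 245 such neighbour pairs, 187 (76.3%) differed in the same direction. Over all 14522 neighbour pairs 54.3% had the same sign, and among the 1716 pairs in which both genes passed 63.2% did. There were 53 runs of at least 3 such neighbours, with 189 genes, and 31 of the runs had a single direction. The lowest percentage of unique reads in a run went from 0 (as in Mp5g23110 to Mp5g23150) to 100 (as in Mp4g22240 to Mp4g22300). Neighbours that share reads are not separate measurements, and the part of shared reads in these counts was not tested.

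The longest run was 7 genes on chromosome 4, Mp4g22240 to Mp4g22300 (24862195 to 24894086), all higher in Mpb-gata1-2 by a log2 of 1.81 to 4.10. It stands just beyond the quiet stretch of that chromosome and includes MpERF16 and MpERF17, members of the ethylene-response-factor family of transcription factors. MpERF17 had 14.4, 12.9 and 12.6 CPM in Mpb-gata1-2, against 3.48, 0.205 and 0.179 in Mpb-gata1-1 and 0.239, 0.345 and 1.31 in BoGa. The mutants did not overlap, but 1 Mpb-gata1-1 library was well above the other two. The log2 difference was 3.59 ± 0.83 (adjusted p = 0.0104). BoGa was nearer to Mpb-gata1-1 for all 7 genes.

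Some other runs with one direction held enzymes of the cell wall and of phenol oxidation. On chromosome 5, 4 neighbours from Mp5g13610 to Mp5g13680 (14883188 to 14946933) fell, among them MpPOD97 and MpPOD98, class III peroxidases, secreted haem enzymes that use hydrogen peroxide to oxidise wall phenolics. MpPOD98 had 0.337, 0.151 and 0.153 CPM in Mpb-gata1-2, against 33.1, 32 and 36 in Mpb-gata1-1 and 35.1, 39.6 and 33.4 in BoGa. BoGa and Mpb-gata1-1 overlapped and Mpb-gata1-2 stood alone, with a log2 difference from Mpb-gata1-1 of -7.35 ± 0.17 (adjusted p = 1.24e-09). A further 5 unnamed genes, on chromosome 7 from Mp7g07870 to Mp7g07910 (9045313 to 9081437), fell by 2.82 to 6.89. On chromosome 2, 4 neighbours from Mp2g24430 to Mp2g24470 rose by 1.14 to 3.64, including MpGH19.3, of a glycoside hydrolase family known for chitinases, and MpPR5b of the thaumatin-like pathogenesis-related proteins. MpPR5b had 134, 157 and 156 CPM in Mpb-gata1-2, against 62, 73.3 and 67.1 in Mpb-gata1-1, and 139, 142 and 138 in BoGa. The mutants did not overlap, and BoGa lay within the range of Mpb-gata1-2.

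Mixed runs also occurred. In the cupin array of chromosome 5, the 6 genes from Mp5g00830 to Mp5g00940 had 4 higher and 2 lower. On chromosome 7, 4 neighbours from Mp7g19370 to Mp7g19400 (21602089 to 21637482) had 2 higher and 2 lower. They comprise MpPOD159, MpPOD160, MpPOD161 and MpNBS-LRR21, the last an intracellular immune receptor. MpNBS-LRR21 had 7.31, 8.38 and 7.96 CPM in Mpb-gata1-2, against 34.8, 36.5 and 36.6 in Mpb-gata1-1, and 32.7, 31.6 and 28.3 in BoGa, and fell by 2.19 ± 0.08 (adjusted p = 3.1e-08).

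Among named genes with a mean log2 CPM of at least 1, the largest rise was that of MpCYP704-like8 on chromosome 3 (10451897 to 10455106), inside the dense stretch of that chromosome. It encodes a cytochrome P450 of a family that in Arabidopsis hydroxylates long-chain fatty acids. It had 70.5, 63.6 and 73.6 CPM in Mpb-gata1-2, against 0.04, 0.117 and 0.134 in Mpb-gata1-1 and 46.8, 34.1 and 25.8 in BoGa. The transcript was close to absent in Mpb-gata1-1 alone (log2 difference 9.31 ± 0.34, adjusted p = 5.57e-08). MpC2H2-21, a zinc finger factor in the same stretch, had 26.3, 24.9 and 29.3 CPM in Mpb-gata1-2, against 2.8, 2.46 and 3.64 in Mpb-gata1-1 and 11.7, 10.6 and 6.92 in BoGa, a log2 difference between the mutants of 3.16 ± 0.20 (adjusted p = 2.25e-06). MpLOX4 on chromosome 5, a lipoxygenase that oxygenates polyunsaturated fatty acids, had 23.4, 24 and 16.5 CPM in Mpb-gata1-2, against 1.2, 1.11 and 0.67 in Mpb-gata1-1 and 60.6, 52.9 and 69.7 in BoGa. BoGa was above both mutants, and these differed by a log2 of 4.47 ± 0.23 (adjusted p = 5.3e-07). MpCupin35 on chromosome 2 rose by 4.57 ± 0.24 (adjusted p = 3.36e-07), MpPPO1 on chromosome 1 by 4.14 ± 0.68 (adjusted p = 0.0013) and MpPOD162 on chromosome 8 by 3.61 ± 0.23 (adjusted p = 1.51e-06). The highest 10 also held MpRLK-Pelle_WAK_LRK10L-12, a wall-associated type receptor kinase, and MpPR6c.

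MpR2R3-MYB1 on chromosome 1 (Mp1g17210, 17534423 to 17541679, minus strand), a MYB transcription factor, belonged to the highest 10 although its chromosome was among the quietest. It had 14.2, 13.8 and 18.5 CPM in Mpb-gata1-2, against 0.56, 0.877 and 0.76 in Mpb-gata1-1, a log2 difference of 4.37 ± 0.35 (adjusted p = 1.04e-05). The BoGa libraries, with V levels of 0.368, 0.533 and 0.682, had 6.69, 8.45 and 15.3 CPM, in the same order as their V reads. It is also the order of their replicate numbers, and a link to V was not tested. This order was not common on the chromosome. Of its 27 genes at least 4-fold apart, 3 had the BoGa libraries, placed between the mutant means, in V order. For 7 the order was the opposite. Whether reads were counted by strand is not given in the sources used here, so transcripts of either strand at this locus cannot be told apart.

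The lowest 10 named genes included 5 more class III peroxidases beside MpPOD98. MpPOD90 on chromosome 5 (11928823 to 11937397) had 3.19, 3.26 and 3.33 CPM in Mpb-gata1-2, against 54.8, 57.2 and 64.8 in Mpb-gata1-1 and 51.8, 55 and 52 in BoGa. Mpb-gata1-2 lay far below both others, and the log2 difference from Mpb-gata1-1 was -4.18 ± 0.08 (adjusted p = 5.94e-10). MpPOD92, also on chromosome 5, fell by 4.39 ± 0.13 (adjusted p = 1.03e-08), MpPOD142 on chromosome 6 by 2.53 ± 0.19 (adjusted p = 4.55e-06), and MpPOD153 and MpPOD160, both on chromosome 7, had next to no reads in Mpb-gata1-2. MpPIP2-like on chromosome 4, of the aquaporin family of water channels, had 1.61 ± 0.361 CPM in Mpb-gata1-2, against 11.6 ± 1.2 in Mpb-gata1-1 (SD, n = 3 each), with 19.1 in BoGa, a log2 difference of -2.86 ± 0.17 (adjusted p = 8.41e-07).

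**Figure D4:**
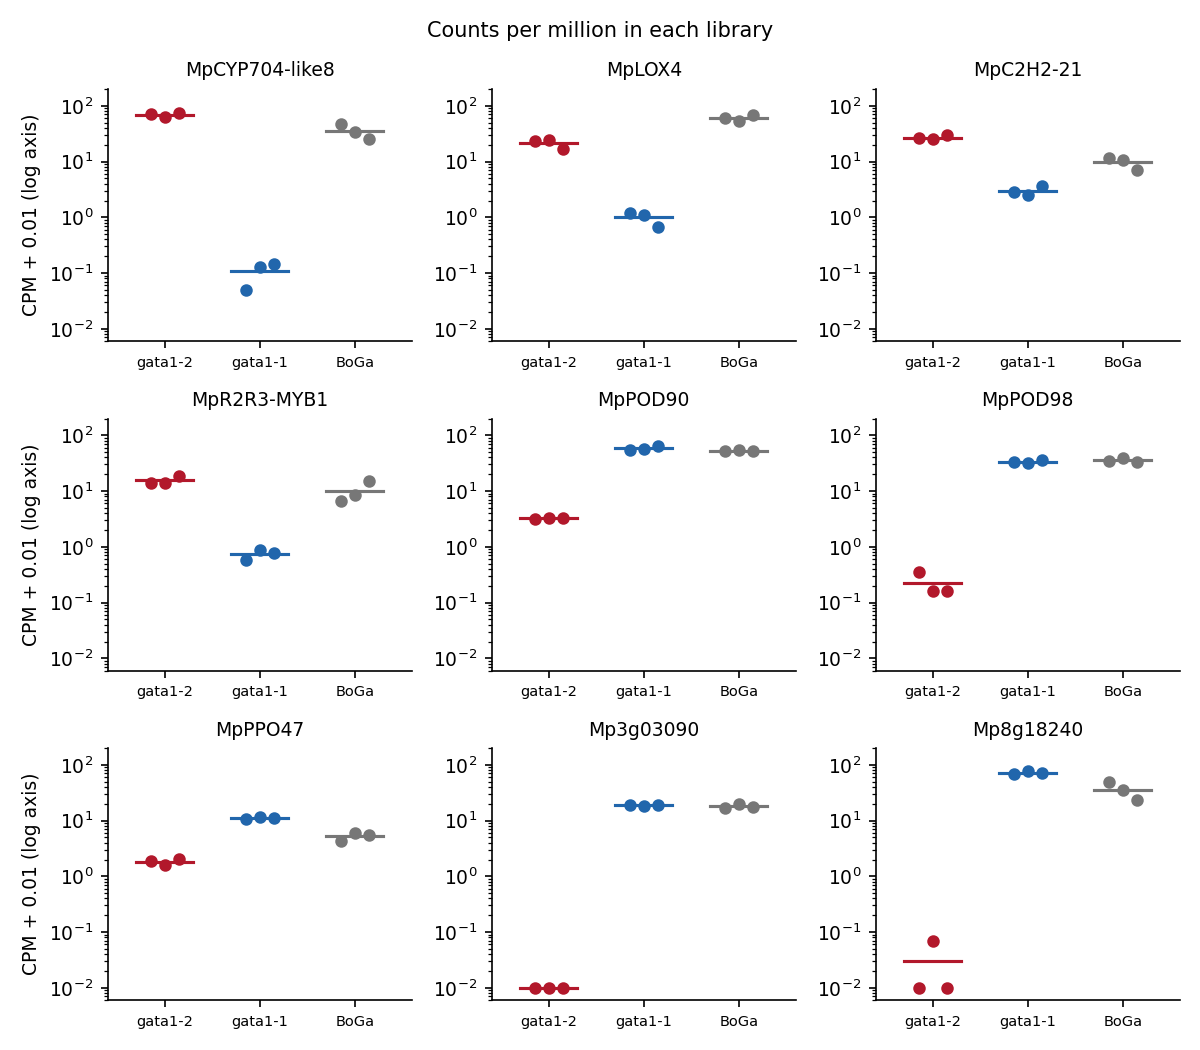
CPM in each library plus 0.01, on a log axis, for 9 genes, with points for the 3 libraries of Mpb-gata1-2, Mpb-gata1-1 and BoGa and a line at each mean. The 4 genes from MpCYP704-like8 to MpR2R3-MYB1 are lowest in Mpb-gata1-1, the other 5 are lowest in Mpb-gata1-2, and Mp3g03090 has no read in Mpb-gata1-2.

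Some genes were read in one mutant and not in the other. There were 13 autosomal genes with at least 1 CPM in every Mpb-gata1-2 library and at most 3 reads over the 3 Mpb-gata1-1 libraries, 9 of them with none. The converse held for 16 genes, 11 of them with no read in Mpb-gata1-2. These genes lay on chromosomes 1, 2, 3, 5, 7 and 8, and none lay on chromosomes 4 or 6. The groups differed in BoGa. All 16 genes missing in Mpb-gata1-2 were present in BoGa, at 49.4% to 459% of their Mpb-gata1-1 mean. The 13 missing in Mpb-gata1-1 were mixed. In BoGa, 7 were below 5% of their Mpb-gata1-2 mean and 5 were at 40% or more. They ran from 0% to 390%, with a median over the 13 of 1.87%.

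Mp3g03090 (chromosome 3, 2834947 to 2837832) had no read in any Mpb-gata1-2 library, against 474, 634 and 841 reads in Mpb-gata1-1 and 572, 621 and 630 in BoGa. It was thus at least 620-fold lower in Mpb-gata1-2, taking 3 reads over the group as the floor. Its reads were 100% unique. Adjacent genes Mp7g06190 and Mp7g06200 on chromosome 7 had no read in Mpb-gata1-2 either, against 918 and 227 reads in Mpb-gata1-1 and 839 and 213 in BoGa. MpPOD153 had 0 reads in Mpb-gata1-2, against 394 in Mpb-gata1-1 and 212 in BoGa, at least 125-fold lower. MpCupin8 and Mp1g19010 were also without reads in Mpb-gata1-2, but 20.4% and 0% of their reads were unique, so reads could be shared with similar or overlapping genes.

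In the other direction, Mp2g13710 (chromosome 2, 14214018 to 14216215) had 194, 252 and 262 reads in Mpb-gata1-2, with none in any Mpb-gata1-1 or BoGa library, at least 247-fold higher than in Mpb-gata1-1. Mp2g06610, also on chromosome 2, had 1101 reads in Mpb-gata1-2, against 0 in Mpb-gata1-1 and 19 in BoGa, at least 385-fold higher. MpGH3.2 (142, 0 and 0 reads in that order) and Mp1g02480 (257, 0 and 0) followed the same pattern. MpBELL1, a homeodomain factor of the TALE class, had 175 reads in Mpb-gata1-2, against 1 in Mpb-gata1-1 and 166 in BoGa.

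Each BoGa library was also placed between the mean of Mpb-gata1-1 (0) and that of Mpb-gata1-2 (1), and the place set beside its V level. Mp7g11270 on chromosome 7 had 37.7%, 57% and 75.5% of its Mpb-gata1-2 mean in the 3 BoGa libraries and no read in Mpb-gata1-1. Mp8g18240 on chromosome 8, with 0, 2 and 0 reads in Mpb-gata1-2, against 1688, 2670 and 3199 in Mpb-gata1-1, had 67.2%, 48.8% and 32.2% of its Mpb-gata1-1 mean in them. Placed on that scale the libraries of Mp8g18240 stood at 0.33, 0.51 and 0.68, in the order of their V level. Of the 353 genes at least 4-fold apart, 3 had all 3 BoGa libraries within 0.1 of their V level on this scale, namely both genes above and MpDFR-like7 on chromosome 2. On the same scale the order of the BoGa libraries matched that of their V level in 69 of the 353 and was the opposite in 90. On chromosome 8 it matched in 14 of 37 and was the opposite in 3, on chromosome 2 the counts were 20 and 18 of 75, on chromosome 5 they were 12 each of 58, and on each of the other 5 chromosomes the opposite order was the more frequent. Tolerance and rule were chosen after the values were seen. The V order of the BoGa libraries is also the order of their replicate numbers, so a match to one cannot be told from a match to the other. With so few libraries some genes take this order by chance, and the counts were not tested against that.

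BoGa was nearer to Mpb-gata1-2 for 448 of the 1029 genes (43.5%) and nearer to Mpb-gata1-1 for 581, on a log2(CPM + 0.1) scale. It lay between the mutants for 631, above both for 259 and below both for 139. Of the 506 genes higher in Mpb-gata1-2, BoGa was nearer to Mpb-gata1-2 for 298. Of the 523 lower ones it was nearer to Mpb-gata1-2 for 150. Chromosomes differed in this respect: on chromosome 2, 27.4% of the differing genes had BoGa nearer to Mpb-gata1-2, on chromosome 8, 61.8%, and on the other 6 from 42.3% to 48.4%. Each BoGa library taken alone gave 43.2% to 44.1% over all 8. Within chromosome 8, the window from 16 to 17 Mb (chosen after its values were seen) had 17 differing genes among 82, and BoGa was nearer to Mpb-gata1-2 for 15 of the 17. Not all of the 17 are separate observations. Runs of 5, 3 and 3 neighbours, starting at Mp8g14550, Mp8g14490 and Mp8g15060, lay in it. Their least unique genes had 36.3%, 44.9% and 56.6% unique reads in that order.

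Gene families were compared by symbol, from lists chosen with results of these data known. Each is described by its count, and no set test was made. Counts are to be read beside the 30.8% of all tested autosomal genes that passed, the 36.8% of those with a symbol, and the 7.08% and 9.27% that did so at least 2-fold apart. Class III peroxidases had the most lower calls of any list: of 138 tested autosomal members, 16 passed as higher and 83 as lower in Mpb-gata1-2, with a median log2 difference of -0.49 beside 0.00 for all autosomal genes. Of these, 69 lie on chromosome 5, and there 3 passed as higher and 45 as lower (median -0.58). Members on chromosomes 2 and 6 showed no rise, with 8 of 8 and 8 of 9 passing as lower, while on chromosome 7 there were 7 higher and 5 lower. Polyphenol oxidases had 3 higher and 27 lower of 45 tested (median -0.61). Under 90% of reads were unique for 17 of the 45, against 1130 of all 14530 tested autosomal genes. Counted by unique reads alone, 3 of 43 passed as higher and 26 as lower. On chromosome 6, 11 of 15 passed as lower and none as higher. MpPPO56 and MpPPO14, with consecutive locus numbers on chromosome 6, had 13.6 ± 0.202 and 17.3 ± 0.905 CPM in Mpb-gata1-2, against 49.3 ± 4.74 and 62.9 ± 3.62 in Mpb-gata1-1 (SD, n = 3 each), with BoGa at 25.4 and 37.9. Of their reads 83.2% and 80% were unique, so the 2 may share reads and may not be separate measurements.

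Other enzyme families moved in both directions. Cupins had 17 higher and 21 lower of 64 tested (11 and 16 of the 41 left by the stricter filter on low counts). Of the 64, 24 (37.5%) were at least 2-fold apart, the highest share of any list. Under 90% of reads were unique for 20 of the 64, against 1130 of all 14530 tested autosomal genes, so some of these members may share reads. Cytochromes P450 had 22 higher and 40 lower of 107 (median -0.19). MpCYP704-like5 on chromosome 2 had 149 ± 7.42 CPM in Mpb-gata1-2, against 29.4 ± 0.601 in Mpb-gata1-1 (log2 difference 2.35 ± 0.09, adjusted p = 5.57e-08), and MpCYP813-like2 on chromosome 3 had 8.65 ± 0.153 and 37.3 ± 3.36 in the same order (-2.11 ± 0.09, adjusted p = 7.29e-08). Glycoside hydrolases had 31 higher and 44 lower of 116. MpGH17.22 on chromosome 7, of the beta-1,3-glucanase family, rose by 2.55 ± 0.09 (adjusted p = 3.75e-08), and MpGH18.2 on chromosome 2, of a chitinase family, fell by 1.84 ± 0.06 (adjusted p = 2.68e-08) with 40.6% unique reads. Terpene synthases had 6 higher and 7 lower of 20. The lower count was 4 without Mpb-gata1-2 replicate 2 or 3 or Mpb-gata1-1 replicate 1 or 3. It was also 4 with DESeq2, with limma and with the replicate block, and 3 of the 11 left by the stricter filter. The phenylpropanoid and polyketide list had 22 higher and 22 lower of 113 (38.9% passing, near the 36.8% of genes with a symbol). Its higher count was 12 without Mpb-gata1-2 replicate 2 and 14 without Mpb-gata1-1 replicate 2 or 3, and its lower count was 34 in the 6 mutant libraries alone. In this list, MpDFR-like16 (chromosome 8) and the dirigent gene MpDIR24 (chromosome 2) rose by 2.45 ± 0.15 and 2.36 ± 0.19 (adjusted p = 1.4e-06 and 6.91e-06).

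Late embryogenesis abundant proteins and dehydrins, known for protecting cells during drying, had 27 higher and 8 lower of 67 tested, with a median of 0.51. Both counts moved with the libraries. The higher count was 14 without Mpb-gata1-1 replicate 3, 15 without Mpb-gata1-2 replicate 2 and 18 without Mpb-gata1-1 replicate 2, and the lower count was 5 without Mpb-gata1-2 replicate 3 or Mpb-gata1-1 replicate 1. Its members with the smallest p included MpLEA-like33 on chromosome 5, at 19.8 ± 0.281 CPM in Mpb-gata1-2, against 10.4 ± 0.679 in Mpb-gata1-1, and on the lower side MpLEA-like54 on chromosome 6, at 26.7 ± 2.26 and 48 ± 1.67 in that order. NBS-LRR immune receptors had 12 higher and 4 lower of 21 (median 0.42). MpNBS-LRR9 on chromosome 4 had 52.4, 45.1 and 51.6 CPM in Mpb-gata1-2, against 14.7, 16.6 and 18.1 in Mpb-gata1-1 and 22.7, 22.2 and 20.2 in BoGa, and rose by 1.59 ± 0.09 (adjusted p = 6.52e-07). MpNBS-LRR1 on chromosome 1 rose by 1.05 ± 0.06 (adjusted p = 8.21e-07).

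Among regulators, transcription factors had 55 higher and 17 lower of 246, a median of 0.05, and 13 at least 2-fold apart. The 29.3% that passed lay near the 30.8% of all tested autosomal genes, and the 5.28% at least 2-fold apart lay below their 7.08%. The higher count was 30 without Mpb-gata1-2 replicate 3, 34 without Mpb-gata1-1 replicate 3 and 36 without Mpb-gata1-2 replicate 1, and the lower count was 29 without BoGa replicate 3 and 28 in the 6 mutant libraries alone. MpWRKY8 on chromosome 2 rose by 0.98 ± 0.06 (adjusted p = 9e-07), with 49.9% unique reads and a gene overlapping on the opposite strand, and MpAP2L3 on chromosome 5 fell by 1.18 ± 0.08 (adjusted p = 2.82e-06). Of 39 hormone genes, 8 passed as higher and 4 as lower, which is 30.8%, as over all tested autosomal genes. The higher count was 4 or 5 without any 1 of the 6 mutant libraries. The lower count was 1 without Mpb-gata1-2 replicate 2, 2 without Mpb-gata1-2 replicate 3 or Mpb-gata1-1 replicate 1 or 2, 9 without BoGa replicate 3 and 7 in the mutant libraries alone. Among the passing genes were 2 of the PIN family of auxin carriers, in opposite directions. MpPIN4 on chromosome 5 had 221 ± 18.4 CPM in Mpb-gata1-2, against 117 ± 6.15 in Mpb-gata1-1 (0.92 ± 0.07, adjusted p = 7.46e-06), and MpPIN3 on chromosome 6 had 5.92 ± 0.576 and 13.6 ± 1 in the same order (-1.20 ± 0.10, adjusted p = 9.4e-06). MpHPT, the phosphotransfer protein of cytokinin signalling, rose by 0.42 ± 0.05 (adjusted p = 0.000101). Cell cycle genes had 2 higher and 4 lower of 25 (24%), and these became 1 and 2 without Mpb-gata1-2 replicate 1 or 3 or Mpb-gata1-1 replicate 1. The lower count was also 2 without Mpb-gata1-1 replicate 3, and the higher count was also 1 without Mpb-gata1-1 replicate 2 or BoGa replicate 2 and in 4 of the other alternatives. Autophagy genes had 1 higher of 21, with MpATG2 at 0.28 ± 0.09 (adjusted p = 0.0365), a call lost in 6 alternatives with an adjusted p of up to 0.134. The list of chlorophyll synthesis and plastid genes had 5 tested members, of which MpGATA4 alone passed. Receptor-like kinases (15 higher and 14 lower of 86, or 33.7%), glycosyltransferases (19 and 16 of 112, or 31.2%), transporters (25 and 28 of 130, or 40.8%) and lipoxygenases (4 and 1 of 15, or 33.3%) stood beside 30.8% of all tested autosomal genes and 36.8% of those with a symbol. Pathogenesis-related genes (7 and 6 of 27, or 48.1%) complete the lists. Their higher count was 4 without Mpb-gata1-2 replicate 2 or 3 or Mpb-gata1-1 replicate 2. It was 3 of the 13 left by the stricter filter. The 1 lower lipoxygenase became 0 or 2 when any of 7 libraries was left out. The 28 lower transporters became 12 without Mpb-gata1-2 replicate 3, 16 without its replicate 2, 18 without its replicate 1 and 17 without Mpb-gata1-1 replicate 3. The 15 higher kinases became 23 without BoGa replicate 3, and the 14 lower ones 9 without Mpb-gata1-2 replicate 2.

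**Figure D5:**
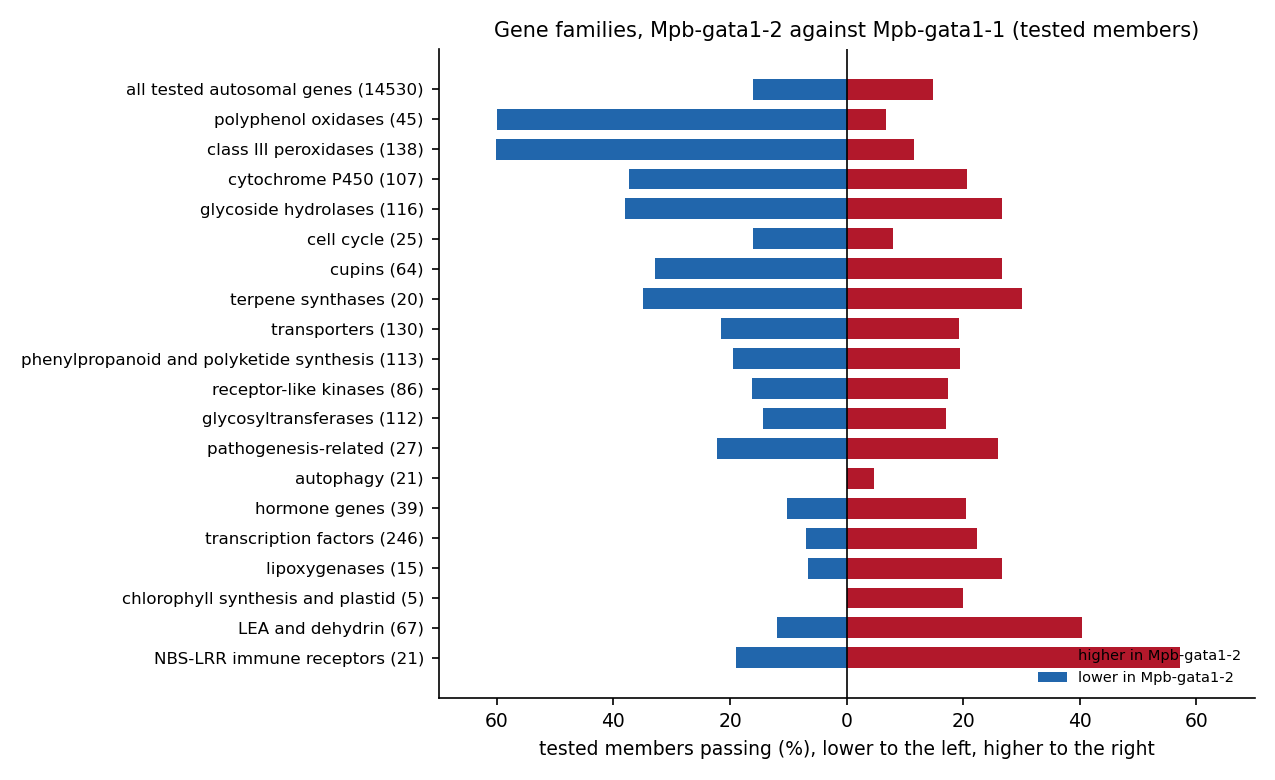
Bars give the percentage of tested members of each list that passed as lower (left) or higher (right) in Mpb-gata1-2 against Mpb-gata1-1, with the number tested in brackets and all tested autosomal genes on top. Polyphenol oxidases (27 of 45 lower) and class III peroxidases (83 of 138 lower) reach farthest to the left, and NBS-LRR genes (12 of 21 higher) farthest to the right.

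Of 15 tested markers of thallus organs and sexual tissue, 4 passed (26.7%), below the 30.8% of all tested autosomal genes. Many listed markers were not found by symbol. For sexual branches and gametes 6 of 13 were found, for rhizoids 2 of 6, for oil body cells 4 of 5, and for gemma cups and gemmae 4 of 5. A listed gene that bears another symbol would be missed, so the counts cover only part of each list. Summed over the 4 tested markers of gemma cups and gemmae, the vegetative propagules of the thallus, the level was 122.9 to 130.1 CPM in Mpb-gata1-2, against 102 to 107.7 in Mpb-gata1-1 and 78 to 100.2 in BoGa. Of these 4, 2 passed as higher: MpGCAM1, a MYB factor of gemma cup formation, at 27.7, 28 and 21.1 CPM in Mpb-gata1-2, against 19.5, 13.9 and 12.5 in Mpb-gata1-1 (0.75 ± 0.17, adjusted p = 0.00766), and MpGRAS2 (0.42 ± 0.10, adjusted p = 0.00948). Neither of the 2 rhizoid markers and none of the 4 oil body markers passed. Their sums were 29 to 33.7 and 27.1 to 28.8 CPM in Mpb-gata1-2, against 30.7 to 37.9 and 25.6 to 30.3 in Mpb-gata1-1. The rhizoid sum is nearly all MpBHLH14, with a mean of 30.9 CPM in Mpb-gata1-2 beside 0.657 for MpFRH1. Of 5 tested genes of sexual branches and gametes, MpRKD passed as higher (0.16 ± 0.05, adjusted p = 0.0269, but up to 0.101 in the 9 alternatives that lost the call) and MpMID as lower (-0.49 ± 0.08, adjusted p = 0.00135), and the sums were 229 to 238 CPM in Mpb-gata1-2, against 221 to 229 in Mpb-gata1-1. MpPRM, a protamine of sperm, was not tested for want of reads. The part of gemma content in the family counts was not tested.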

How the data were processed

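Whole thalli were sequenced as stranded mRNA libraries, 3 per group, per the labels' protocols. The authors deposited 1 table per library with gene counts (total and unique gene reads), RPKM and TPM, per the file headers. No aligner, strand setting or genome build is given in the sources used here, and coordinates are those of the tables. RPKM was not used. Symbols came from a RefSeq name table (MpTak2_v7.1) through locus numbers, used for names only: 17641 of 20090 autosomal genes (87.8%) matched and 3091 had a symbol. Deposited total counts were fitted in edgeR 4.0.16 (R 4.3.3; TMM scaling, filterByExpr, robust quasi-likelihood) over all 9 libraries, with adjustment over all 14667 tested genes. The threshold for passing was an adjusted p of 0.05. CPM values are scaled by TMM, and errors are SD for levels and SE for log2 differences. The fit was tested on simulated counts. Alternatives used limma 3.58.1 on log2(TPM + 1) of the authors' TPM and DESeq2 1.42.0. Common biological variation was 9.08%. Replicate pairs correlated at 0.989 to 0.995 and differed by more than sampling noise (chi-square per degree of freedom 8.28 to 43.2). Separate cultures are not stated, so p-values measure the spread between these pools.

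Members, families and tests were chosen with earlier results of these data known. Genes named were the 10 highest and 10 lowest with a symbol (mean log2 CPM at least 1, no overlap), the highest and lowest of each chromosome, up to 4 genes in each of the 5 densest windows, up to 3 per list by p, all tested markers, and the 3 genes with the most reads in one mutant and at most 3 reads over the other, in each direction. Genes in runs, others without reads and Mp6g08300 were named after their values were seen.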

Additional observations from a re-analysis of the deposited data

Results flagged for a closer look

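A pair of quantities outside the autosomal comparison stood above their level in BoGa. The V level is scaled to the mean of Mpb-gata1-2, so its average there, 0.998, is set by construction. All 3 BoGa libraries lay below it (0.368, 0.533 and 0.682). Of the 50 tested V genes, 30 passed as higher in Mpb-gata1-2 than in Mpb-gata1-1, with 2 lower. The share of reads on unplaced scaffolds averaged 0.188% in Mpb-gata1-2 (0.197%, 0.182% and 0.185%), against 0.156%, 0.16% and 0.149% in BoGa. In Mpb-gata1-1 it was 0.241%, 0.152% and 0.2%, a range that overlaps both.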

How the results depend on the processing

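Leaving out 1 of the 9 libraries at a time, 3161 to 5501 autosomal genes passed and 950 to 1078 passed at least 2-fold, against 4481 and 1029 with all. The lowest count came without Mpb-gata1-2 replicate 3 and the highest without BoGa replicate 3. The share of a chromosome relative to all autosomes stayed within 0.52 to 0.57 for chromosome 1, 0.52 to 0.58 for chromosome 4 and 0.77 to 0.87 for chromosome 6. The other scalings, DESeq2, unique reads and the 6 mutant libraries alone gave 4440 to 5288 passing genes. Upper-quartile scaling gave 42.2% of passing genes as higher, against 48% with TMM scaling. The count at least 2-fold moved to 569 with the stricter filter and 582 with limma on log2(TPM + 1), where low genes are left out or their differences are shrunk by construction. Relative shares moved at a fold of at least 4 to 1.54 on chromosome 2 and 0.59 on chromosome 6, and at any fold to 0.94 on chromosome 1, 1.13 on chromosome 2, 0.73 on chromosome 4 and 1.06 on chromosome 5. The cause was not tested. The densest window stayed on chromosome 5 with windows of 0.5 Mb (35.5%) and 2 Mb (20%), and was on chromosome 6 (25.8%) when windows were shifted by 0.5 Mb.

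Replicate numbers do not pair these samples (correlations of same-numbered deviations -0.116 to 0.161). With the replicate block 4012 genes passed, 1017 of them at least 2-fold. Of the 97 named genes that passed, 90 passed under every alternative that tested them, the others being MpRKD, MpATG2, Mp3g12520, Mp8g13790, MpCupin63, MpGATA4 and MpKRP. Signs turned, when 1 library was left out, for 4 marker genes that had not passed: MpDUO1 (log2 differences from -0.07 to 0.02), MpABCG1 (-0.13 to 0.03), MpC1HDZ (-0.10 to 0.16) and MpFRH1 (-0.46 to 0.02). With 3 pools per mutant and genes of few reads carrying most large differences, single low-level genes are the least certain values.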
